A study of Mus musculus with 12 samples.

Results

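The 10 genes described here mark GABAergic interneurons, the inhibitory neurons of cortex and hippocampus: Gad1, Gad2, Slc32a1, Pvalb, Sst, Vip, Npy, Cck, Calb2 and Dlx1. They were taken as all probe sets for which the platform annotation names 1 of these symbols as the only gene, which gave 15 of the 45037 probe sets tested, and 10 of 18193 genes. Slc32a1 had 4 probe sets, Gad1 and Gad2 had 2 each, and the other 7 genes had 1 each. No probe set naming several genes held a member. RNA of prefrontal cortex and hippocampus had been hybridised to 12 Affymetrix arrays, 3 in each of 4 groups: APLP2-KO cortex, APPsα-DM cortex, APLP2-KO hippocampus and APPsα-DM hippocampus. The mice were adult females of 38 to 40 weeks on a C57BL/6 background (6 generations of back-crossing), 3 per genotype. APLP2-KO mice (APLP2-/-) lack APLP2, which belongs to the family of the amyloid precursor protein (APP), and keep their App alleles. APPsα-DM mice (APPα/αAPLP2-/-) lack APLP2 as well and carry on both App alleles a version that yields the secreted ectodomain APPsα without membrane-bound APP, as this allele is generally described. Both genotypes are thus without APLP2, neither is restricted to a cell type, and no wild type was analysed here. Values are the deposited RMA signals on a log2 scale, so that a difference of 1 corresponds to a doubling of signal. The arrays of a group come from samples numbered 1 to 3 in the labels. The p-values measure the spread between these samples within groups, pooled over the 4 groups for each probe set. With 3 mice per genotype the tissues are not independent, and the fit reported did not pair them.

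GABA is made from glutamate by the glutamic acid decarboxylases GAD67 (Gad1) and GAD65 (Gad2), and is loaded into synaptic vesicles by the transporter VGAT (Slc32a1). Interneurons fall into classes that differ in the calcium-binding proteins and neuropeptides they carry: parvalbumin (Pvalb) in fast-spiking basket and chandelier cells, somatostatin (Sst) in cells that contact dendrites, vasoactive intestinal peptide (Vip) in cells that mostly inhibit other interneurons, neuropeptide Y (Npy) in neurogliaform and many somatostatin cells, and cholecystokinin (Cck) and calretinin (Calb2) in further classes. Dlx1 is a homeobox transcription factor of the lineage that makes these neurons. Several of these genes are not confined to interneurons. Cck is also transcribed in excitatory cortical neurons, Calb2 in mossy cells of the mouse dentate hilus and in olfactory bulb interneurons, and Gad1, Gad2 and Slc32a1 in the GABAergic neurons of the striatum and olfactory bulb.

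The sequences upstream of 5 of the genes are given first: those of Slc32a1, Pvalb, Vip and Npy, whose signal was lower in hippocampus in both genotypes, and that of Sst, a peptide gene whose signal did not pass the test between tissues. They are RefSeq sequences on build GRCm38.p6, each of the 250 bases before the annotated transcription start, read 5′ to 3′ on the gene's strand. Entries matched 9 of the 10 genes. Capitals mark TGACGT, the core of the cyclic AMP response element, or its reverse complement. They also mark TATAAA, the letters of a TATA box, or their reverse complement.
Slc32a1, chr2:158610508-158610757, plus strand: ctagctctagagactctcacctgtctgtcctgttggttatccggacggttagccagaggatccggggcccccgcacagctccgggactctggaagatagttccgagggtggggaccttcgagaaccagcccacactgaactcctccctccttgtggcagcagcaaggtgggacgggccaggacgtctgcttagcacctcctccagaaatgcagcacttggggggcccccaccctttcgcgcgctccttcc
Pvalb, chr15:78206401-78206650, minus strand, the start lying farther upstream of the 2 in the table: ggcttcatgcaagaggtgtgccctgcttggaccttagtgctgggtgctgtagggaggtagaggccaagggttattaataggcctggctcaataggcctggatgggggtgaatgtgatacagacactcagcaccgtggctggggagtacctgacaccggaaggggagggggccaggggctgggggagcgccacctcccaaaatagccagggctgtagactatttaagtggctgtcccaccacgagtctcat
Vip, chr10:5638968-5639217, plus strand: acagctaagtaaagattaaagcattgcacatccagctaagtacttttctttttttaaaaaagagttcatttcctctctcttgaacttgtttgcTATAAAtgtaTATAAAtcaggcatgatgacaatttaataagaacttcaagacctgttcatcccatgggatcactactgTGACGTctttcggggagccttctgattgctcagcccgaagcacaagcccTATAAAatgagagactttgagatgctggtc
Npy, chr6:49822460-49822709, plus strand: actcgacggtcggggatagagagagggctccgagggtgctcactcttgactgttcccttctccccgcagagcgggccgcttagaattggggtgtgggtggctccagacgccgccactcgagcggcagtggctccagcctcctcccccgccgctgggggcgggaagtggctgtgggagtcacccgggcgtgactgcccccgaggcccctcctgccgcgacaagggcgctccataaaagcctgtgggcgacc
Sst, chr16:23890845-23891094, minus strand: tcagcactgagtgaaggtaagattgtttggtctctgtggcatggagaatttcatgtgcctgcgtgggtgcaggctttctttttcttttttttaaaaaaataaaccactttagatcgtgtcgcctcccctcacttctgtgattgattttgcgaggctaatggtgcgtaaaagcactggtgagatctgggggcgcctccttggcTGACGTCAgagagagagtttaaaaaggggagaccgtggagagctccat
The Sst window held the full palindrome TGACGTCA, beginning 48 bases before the start, which 1.55% of 32851 promoter windows of this length held on either strand. Vip held the shorter TGACGT 79 bases before its start. This letter run is part of the palindrome and was found in 6.47% of windows, those with the palindrome included. Vip also held TATAAA at 157, 147 and 30 bases before the start (12.4% of windows). Neither run of letters occurred in the windows printed for Slc32a1, Pvalb and Npy. Of the other members' windows, that of Gad1 held TATAAA on the opposite strand 141 bases before the start, and that of Cck held the E-box letters CACGTG 66 bases before it (6.02% of windows). The homeodomain letters TAATTA (4.84% of windows) were in none of the 10 member windows. A match describes letters, and no binding was measured.

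The edited gene and the tissue markers matched the labels of the arrays. A bright App probe set lay at 13.38 to 13.50 on the 6 APLP2-KO arrays and at 11.46 to 11.83 on the 6 APPsα-DM arrays, with no overlap. Aplp2, deleted in both genotypes, still read 9.84 to 10.15 on the 12 arrays; with no wild type and the place of this probe set relative to the deletion not analysed here, its signal checks nothing about the knockout. Of 8 hippocampal neuron markers, 8 were called higher in hippocampus in both genotypes (limma, adjusted p under 0.05), against 3.89% of all probe sets. Arrays of the same group correlated at 0.9947 to 0.9972 over all probe sets and arrays of different tissues at 0.9871 to 0.9919. The choroid plexus transcript Ttr ranged from 8.20 to 14.36 across arrays, and within cortex it was high on APLP2-KO cortex 3 and APPsα-DM cortex 2. One further array stood apart for olfactory bulb markers, APPsα-DM cortex 3, whose values are given beside the genotype comparison in cortex. Every member had a brightest probe set whose mean over the 12 arrays lay at or above the 72.7th percentile of all probe sets.

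Slc32a1, Pvalb, Vip and Npy were lower in hippocampus than in cortex in both genotypes, by 1.55-fold to 2.17-fold, while the signals of Gad1, Gad2, Sst and Cck did not pass the test in either genotype. Calb2 was called higher in hippocampus in APLP2-KO, and Dlx1 was called lower there in APPsα-DM. In APLP2-KO, 1 of the 15 probe sets was called higher and 4 lower (limma, Benjamini-Hochberg adjusted p under 0.05), against 12.6% of all probe sets called, 5.62% higher and 6.98% lower. In APPsα-DM, 5 were called lower and 0 higher, against 10.6% of all probe sets called, 5.21% higher and 5.42% lower. The 4 genes that fell in both genotypes compare with 4.43% of all probe sets. The median difference of the 15 probe sets was -0.03 in APLP2-KO and -0.12 in APPsα-DM, against 0.01 and -0.01 over all probe sets. Over the brightest probe set of each of the 10 genes it was -0.195 and -0.348. In whole tissue, fewer cells of a type and less RNA per cell cannot be told apart.

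**Figure D1:**
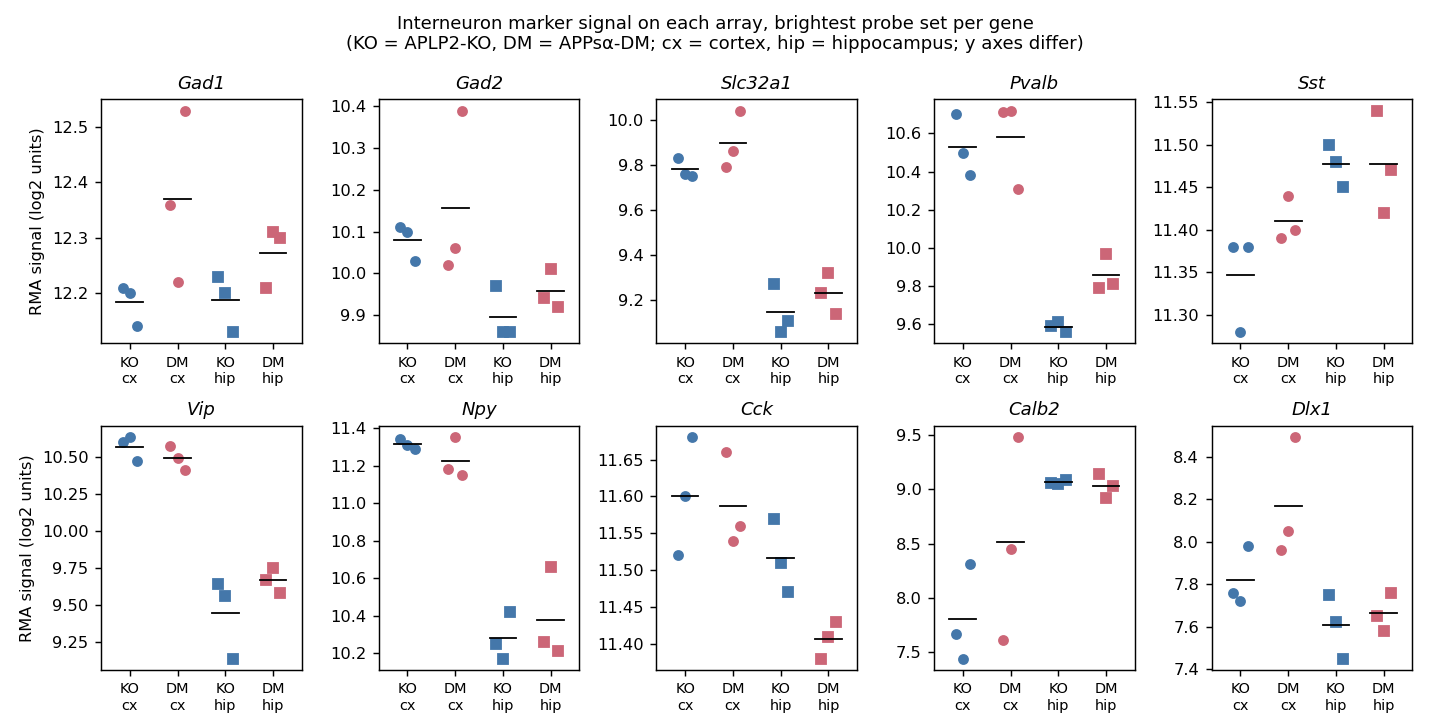
Log2 RMA signal of the brightest probe set of each of the 10 genes on each of the 12 arrays, in 4 groups of 3; points are arrays, bars are group means and the y axes differ between genes. The hippocampal points of Vip, Npy, Pvalb and Slc32a1 lie below all cortical points, and Calb2 on APPsα-DM cortex 3 (9.48) lies above every other array.

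Among the genes of GABA synthesis, Gad1 showed nearly the same signal in both tissues. The brighter Gad1 probe set (1416561_at, chromosome 2) read 12.21, 12.20 and 12.14 on the APLP2-KO cortex arrays and 12.23, 12.20 and 12.13 on the APLP2-KO hippocampus arrays. On APPsα-DM cortex it read 12.36, 12.22 and 12.53, and on APPsα-DM hippocampus 12.21, 12.31 and 12.30. The groups overlapped in both genotypes. Its difference of hippocampus minus cortex was 0.00 ± 0.08 (SE; 95% interval -0.17 to 0.18, adjusted p = 0.991) in APLP2-KO and -0.10 (interval -0.27 to 0.08, adjusted p = 0.53) in APPsα-DM. The other Gad1 probe set (1416562_at) gave 0.01 and -0.12, adjusted p = 0.982 and 0.659. The 4 group means of the brighter probe set ran from 12.18 in APLP2-KO cortex and 12.18 in APLP2-KO hippocampus over 12.28 in APPsα-DM hippocampus to 12.37 in APPsα-DM cortex, and none of the tests between them passed.

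Gad2 lay slightly lower in hippocampus without passing the test. Its brighter probe set (1429589_at) read 10.11, 10.10 and 10.03 on APLP2-KO cortex, 10.02, 10.06 and 10.39 on APPsα-DM cortex, 9.97, 9.86 and 9.86 on APLP2-KO hippocampus, and 9.94, 10.01 and 9.92 on APPsα-DM hippocampus. Every hippocampal array lay below every cortical array of its genotype, which 15.5% of all probe sets did in APLP2-KO and 14.2% in APPsα-DM. The differences were -0.18 ± 0.09 (adjusted p = 0.248) and -0.20 ± 0.09 (adjusted p = 0.21), the second -0.08 without APPsα-DM cortex 3. The dimmer probe set (1421978_at) spread far more within groups, from 6.54 to 7.38 in APPsα-DM hippocampus alone, and gave -0.03 and -0.09 (adjusted p = 0.952 and 0.858).

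The vesicular transporter gene Slc32a1 fell in hippocampus. Its brightest probe set (1422756_at) read 9.83, 9.76 and 9.75 on APLP2-KO cortex and 9.27, 9.06 and 9.11 on APLP2-KO hippocampus. On APPsα-DM cortex it read 9.79, 9.86 and 10.04, and on APPsα-DM hippocampus 9.23, 9.32 and 9.14. All 6 hippocampal arrays lay below all 6 cortical arrays. The difference was -0.63 ± 0.08 in APLP2-KO (1.55-fold lower, adjusted p = 0.00025) and -0.67 ± 0.08 in APPsα-DM (1.59-fold lower, adjusted p = 0.000203). The other 3 probe sets of Slc32a1 had group means of 4.53 to 6.17, near or below the median of all probe sets (5.89), and gave differences of -0.03 to 0.16, none past the test. Averaging the 4 probe sets of the gene ended the call, with -0.09 (adjusted p = 0.298) in APLP2-KO and -0.15 (adjusted p = 0.0706) in APPsα-DM.

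Parvalbumin signal fell in hippocampus in both genotypes. Pvalb (1417653_at, chromosome 15) read 10.70, 10.50 and 10.38 on APLP2-KO cortex and 9.59, 9.61 and 9.56 on APLP2-KO hippocampus, a difference of -0.94 ± 0.11 (1.92-fold, adjusted p = 0.000123). On the APPsα-DM arrays it read 10.71, 10.72 and 10.31 in cortex and 9.79, 9.97 and 9.81 in hippocampus, a difference of -0.73 ± 0.11 (1.66-fold, adjusted p = 0.00106). The tissues did not overlap in either genotype. The group means ran from 9.59 in APLP2-KO hippocampus over 9.85 in APPsα-DM hippocampus to 10.53 and 10.58 in APLP2-KO and APPsα-DM cortex, and the cortical groups overlapped each other while the hippocampal groups did not.

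Of the neuropeptide genes, Vip and Npy fell in hippocampus. Vip (1428664_at, chromosome 10) read 10.60, 10.63 and 10.47 on APLP2-KO cortex and 9.64, 9.56 and 9.14 on APLP2-KO hippocampus, a difference of -1.12 ± 0.11 (2.17-fold, adjusted p = 2.95e-05). On the APPsα-DM arrays it read 10.57, 10.49 and 10.41 in cortex and 9.67, 9.75 and 9.58 in hippocampus, a difference of -0.83 ± 0.11 (1.77-fold, adjusted p = 0.000381). No hippocampal array reached any cortical array, and APLP2-KO hippocampus 3 was the lowest of the 12. Npy (1419127_at, chromosome 6) read 11.34, 11.31 and 11.29 on APLP2-KO cortex and 10.25, 10.17 and 10.42 on APLP2-KO hippocampus (-1.03 ± 0.11, 2.04-fold, adjusted p = 5.45e-05). On APPsα-DM cortex Npy read 11.18, 11.35 and 11.15, and on APPsα-DM hippocampus 10.26, 10.66 and 10.21 (-0.85 ± 0.11, 1.80-fold, adjusted p = 3e-04). The tissues did not overlap, and within each tissue the genotypes overlapped for both peptides.

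Somatostatin and cholecystokinin signals differed little between the tissues. Sst (1417954_at, chromosome 16) read 11.38, 11.28 and 11.38 on APLP2-KO cortex, 11.39, 11.44 and 11.40 on APPsα-DM cortex, 11.50, 11.48 and 11.45 on APLP2-KO hippocampus, and 11.54, 11.42 and 11.47 on APPsα-DM hippocampus. The hippocampal arrays lay above the cortical arrays in APLP2-KO, as for 14.8% of all probe sets, and overlapped them in APPsα-DM. The difference was 0.13 ± 0.06 (interval 0.00 to 0.26, adjusted p = 0.199) and 0.07 ± 0.06 (interval -0.06 to 0.20, adjusted p = 0.562), and the intervals do not reach the size seen for Vip or Npy. Cck (1419473_a_at, chromosome 9) read 11.52, 11.60 and 11.68 on APLP2-KO cortex and 11.57, 11.51 and 11.47 on APLP2-KO hippocampus. On APPsα-DM cortex it read 11.66, 11.54 and 11.56, and on APPsα-DM hippocampus 11.38, 11.41 and 11.43. The tissues overlapped in APLP2-KO (-0.08 ± 0.07, adjusted p = 0.49) and not in APPsα-DM (-0.18 ± 0.07, adjusted p = 0.115). The Cck difference in APPsα-DM passed when probe sets below the median level were left out (adjusted p = 0.0478) and when the variance was moderated with a trend (adjusted p = 0.0333).

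Calretinin varied most from array to array. Calb2 (1451129_at, chromosome 8) read 9.06, 9.05 and 9.09 on APLP2-KO hippocampus and 9.14, 8.92 and 9.03 on APPsα-DM hippocampus, a tight range. On cortex it read 7.67, 7.44 and 8.31 in APLP2-KO and 7.61, 8.45 and 9.48 in APPsα-DM. In APLP2-KO the tissues did not overlap and the gene was called higher in hippocampus, by 1.26 ± 0.35 (2.39-fold, adjusted p = 0.0324). In APPsα-DM, array 3 of the cortex lay above every hippocampal array, and the difference of 0.52 ± 0.35 did not pass (adjusted p = 0.424). The test between these differences did not pass (-0.74, unadjusted p = 0.158, adjusted p = 1). Without APPsα-DM cortex 3 the difference in APPsα-DM was 1.00 (adjusted p = 0.0284). The call in APLP2-KO was lost without APLP2-KO cortex 1 (adjusted p = 0.0966), without APLP2-KO cortex 2 (0.122) and without APLP2-KO hippocampus 1, 2 or 3 (adjusted p = 0.0727, 0.0825 and 0.0882), with differences of 1.08 to 1.27.

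The lineage factor Dlx1 (1449470_at, chromosome 2) read 7.76, 7.72 and 7.98 on APLP2-KO cortex and 7.75, 7.62 and 7.45 on APLP2-KO hippocampus, where the tissues overlapped (-0.21 ± 0.13, adjusted p = 0.372). On APPsα-DM cortex it read 7.96, 8.05 and 8.49, and on APPsα-DM hippocampus 7.65, 7.58 and 7.76. There the tissues did not overlap, and the gene was called lower in hippocampus by -0.50 ± 0.13 (1.41-fold, adjusted p = 0.0289). That call was lost without APPsα-DM cortex 3 (-0.34, adjusted p = 0.0841), APPsα-DM hippocampus 1 (adjusted p = 0.0766) or APPsα-DM hippocampus 2 (adjusted p = 0.0896).

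**Figure D2:**
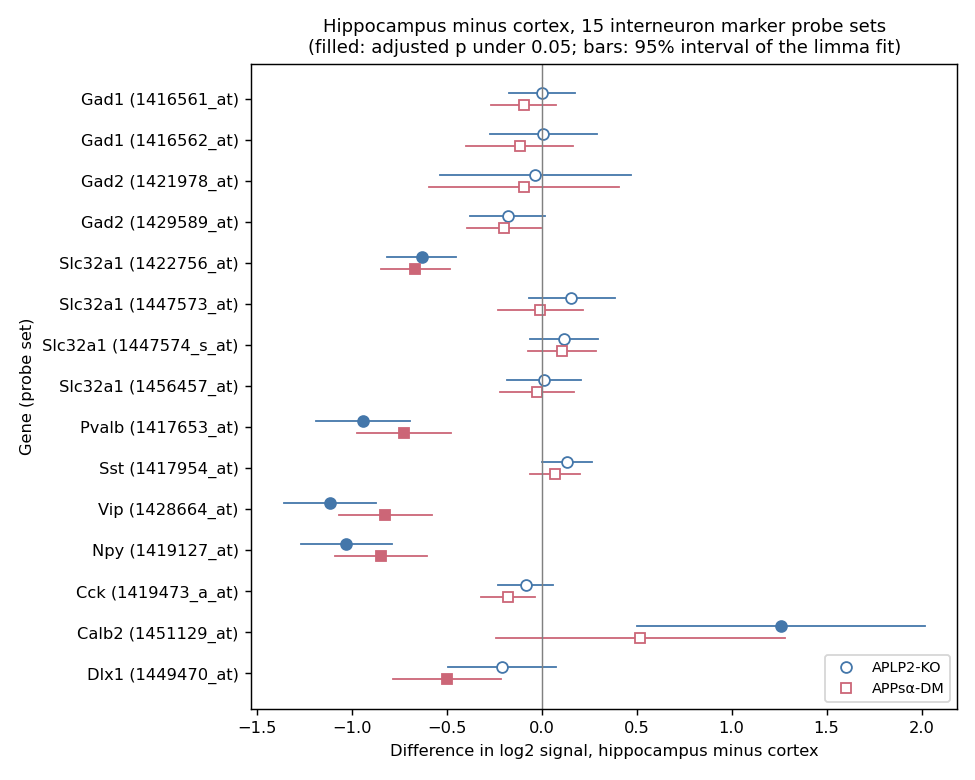
Difference in log2 signal, hippocampus minus cortex, of the 15 probe sets in each genotype, with 95% intervals of the limma fit; filled symbols have an adjusted p under 0.05. Vip (-1.12 and -0.83), Npy (-1.03 and -0.85), Pvalb (-0.94 and -0.73) and the brightest Slc32a1 probe set (-0.63 and -0.67) are filled in both genotypes, Calb2 in APLP2-KO and Dlx1 in APPsα-DM alone.

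Markers of the striatum, whose projection neurons are GABAergic, moved with the tissue comparison. Of 14 such genes 12 were measured, and 12 of 12 were called lower in hippocampus in both genotypes, against 4.43% of all probe sets. The median difference of the list was -2.08 in APLP2-KO and -2.28 in APPsα-DM. Their mean log2 signal was 9.24 to 9.66 in APLP2-KO cortex (sums of 110.84 to 115.95), 9.41 to 9.94 in APPsα-DM cortex (112.89 to 119.26), 7.18 to 7.55 in APLP2-KO hippocampus (86.19 to 90.56) and 7.32 to 7.53 in APPsα-DM hippocampus (87.82 to 90.36). None was at 0 on any array. Among 9 measured markers of excitatory neurons, 2 were called higher and 4 lower in hippocampus in both genotypes (3.89% and 4.43% of all probe sets). The part of striatal tissue in the lower Slc32a1, Pvalb, Vip, Npy and Dlx1 signals of hippocampus, and in those of the other transcription factors, was not tested.

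Receptors of the members' peptides also differed between tissues, and not always in the direction of their ligands. Npy2r, a receptor for neuropeptide Y and peptide YY, read 5.38, 5.39 and 5.47 on APLP2-KO cortex and 9.45, 9.46 and 9.50 on APLP2-KO hippocampus, with 5.24, 5.20 and 5.62 against 9.32, 9.48 and 9.68 in APPsα-DM. It rose in hippocampus by 4.06 ± 0.11 (16.7-fold, adjusted p = 3.61e-09) and 4.14 ± 0.11 (17.6-fold, adjusted p = 2.86e-09), where Npy itself fell. Npy1r gave 0.40 and 0.39 without passing (adjusted p = 0.136 and 0.153). It passed in APLP2-KO with the 6 arrays alone (adjusted p = 0.0433) and in APPsα-DM without APPsα-DM cortex 1 (0.57, adjusted p = 0.0315), where the mean of its probe sets gave 0.16. Sstr2, a somatostatin receptor, fell in both genotypes (-0.87 and -0.89, adjusted p = 7.15e-05 and 7.51e-05), where Sst did not pass, and the dim Sstr1 gave -0.19 and -0.05 (adjusted p = 0.358 and 0.843).

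Cckbr, the main brain receptor for cholecystokinin, read 9.63, 9.78 and 9.69 on APLP2-KO cortex and 8.16, 7.99 and 7.40 on APLP2-KO hippocampus, with 9.92, 9.56 and 9.67 against 8.05, 7.99 and 7.96 in APPsα-DM. It fell in both genotypes (-1.86, 3.62-fold, adjusted p = 7.14e-06, and -1.72, 3.29-fold, adjusted p = 1.56e-05), with no overlap. Vipr1, which binds vasoactive intestinal peptide, fell in both (-0.46 and -0.43, adjusted p = 0.00973 and 0.0163). The Vipr1 call ended in both genotypes when all its probe sets were averaged (adjusted p = 0.148 and 0.0619), and in APPsα-DM without APPsα-DM cortex 1 (adjusted p = 0.0614), APPsα-DM cortex 3 (0.0604) or APPsα-DM hippocampus 1 (0.0671). These receptors were measured in whole tissue, where excitatory neurons also express several of them.

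**Figure D3:**
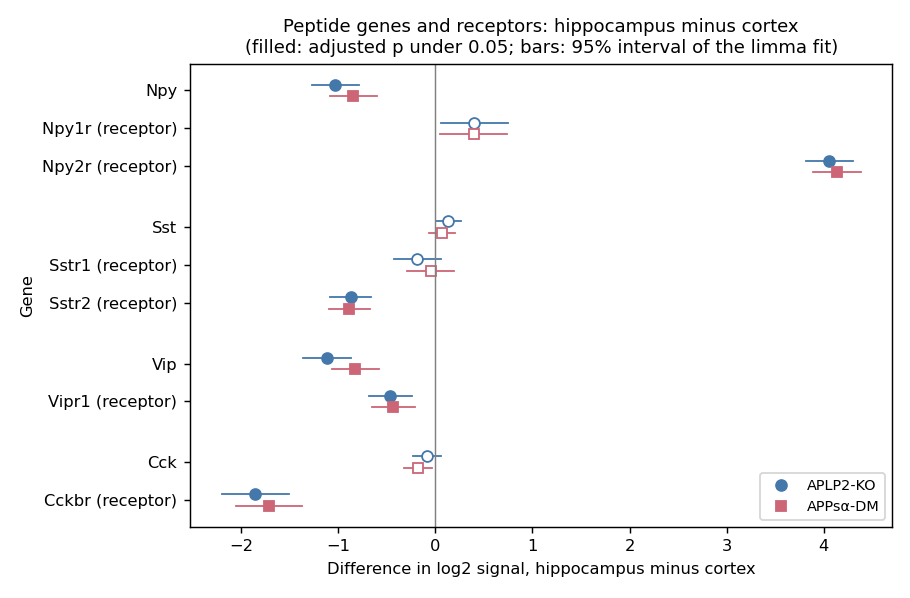
Difference in log2 signal, hippocampus minus cortex, of the peptide genes Npy, Sst, Vip and Cck and of their receptor genes in each genotype, with 95% intervals of the limma fit; filled symbols have an adjusted p under 0.05. Npy2r lies at 4.06 and 4.14 on the other side of 0 from Npy (-1.03 and -0.85), and Sstr2 and Cckbr are filled where Sst and Cck are open.

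Of 10 genes that handle GABA and its precursors 8 were measured, and 1 was called lower in hippocampus in APLP2-KO, a share near the 12.6% of all probe sets called, and none in APPsα-DM (10.6% of all), where 2 had an unadjusted p under 0.05 (22.9% of all probe sets). That gene was Slc6a11, the GABA transporter GAT-3 of astrocytes, at 8.10, 7.95 and 7.88 on APLP2-KO cortex and 7.33, 7.64 and 7.75 on APLP2-KO hippocampus (-0.40 ± 0.11, adjusted p = 0.0349). In APPsα-DM it gave -0.36 (adjusted p = 0.0615), which passed without APLP2-KO hippocampus 1 (adjusted p = 0.0274) or APLP2-KO hippocampus 3 (0.0481). Of 5 astrocyte markers, 3 were called higher and 1 lower in hippocampus in each genotype. Over all probe sets these shares were 5.62% and 6.98% in APLP2-KO, and 5.21% and 5.42% in APPsα-DM. Astrocyte list means were 10.02 to 10.26 in cortex (sums of 50.09 to 51.28) and 10.44 to 10.56 in hippocampus (52.21 to 52.82), none at 0. The part of astrocyte content in the Slc6a11 signal was not tested. The call in APLP2-KO was lost with the mean of its probe sets (-0.20, adjusted p = 0.199), with the arrays paired by replicate number (adjusted p = 0.069) and without APLP2-KO cortex 1 (0.127), APLP2-KO cortex 2 (0.0777), APLP2-KO hippocampus 1 (0.12) or APLP2-KO hippocampus 2 (0.0651).

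The other interneuron transcription factors split by direction. Of 15 fixed genes 12 were measured, and 1 was called higher and 3 lower in hippocampus in APLP2-KO, 1 higher and 4 lower in APPsα-DM. Over all probe sets these shares were 5.62% and 6.98%, and 5.21% and 5.42%. Nr2f2, a factor of interneurons from the caudal ganglionic eminence, read 7.42 to 7.75 on the cortical arrays and 8.64 to 9.26 on the hippocampal arrays and rose by 1.22 (adjusted p = 3.51e-05) and 1.45 (adjusted p = 1.01e-05). Lhx8, a factor of ventral forebrain neurons including the cholinergic neurons of the striatum, fell in both genotypes (-1.14, adjusted p = 0.0107, and -1.50, adjusted p = 0.00204). It was dim, with means of 4.35 and 4.66 in cortex and 3.21 and 3.15 in hippocampus, below the median of all probe sets (5.89). The APLP2-KO call was lost without APLP2-KO hippocampus 3 (-0.99, adjusted p = 0.052) and in limma without moderation of variances (adjusted p = 0.0545). The homeobox relatives of Dlx1 were lower in hippocampus of APPsα-DM, with Dlx2 at -0.61 (adjusted p = 0.00928), Dlx5 at -0.74 (0.00788) and Dlx6 at -0.74 (0.00707).

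In APLP2-KO, Dlx2 gave -0.33 (adjusted p = 0.138) and Dlx6 -0.43 (adjusted p = 0.0911, and 0.0408 without APPsα-DM cortex 3). Dlx5 gave -0.52 (adjusted p = 0.0457), a call lost with the arrays paired by number (adjusted p = 0.0695) and without any of APLP2-KO cortex 1, 2 and 3 (0.0669, 0.0798 and 0.159), APLP2-KO hippocampus 2 and 3 (0.121 and 0.174) or APPsα-DM hippocampus 1, 2 and 3 (0.0575, 0.0582 and 0.0615). Satb1, a chromatin organiser of maturing interneurons that excitatory neurons also express, fell by 0.46 in APLP2-KO (adjusted p = 0.0203) and gave -0.14 in APPsα-DM (adjusted p = 0.528). That call was lost without APLP2-KO cortex 1 (adjusted p = 0.0558), APLP2-KO cortex 2 (0.0797) or APLP2-KO hippocampus 3 (0.0908).

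Of 32 further subclass markers 31 were measured, the 6 receptors among them. In APLP2-KO, 8 were called higher and 9 lower in hippocampus, in APPsα-DM 8 and 7 (5.62% and 6.98%, and 5.21% and 5.42%, of all probe sets), and 6 were called higher and 7 lower in both (3.89% and 4.43% of all probe sets). Their median difference was -0.03 and -0.05, against 0.01 and -0.01 over all probe sets. Lamp5, which marks neurogliaform interneurons and is also transcribed in upper-layer excitatory neurons, lay at 11.84 to 12.12 on the cortical and 9.77 to 10.31 on the hippocampal arrays and gave -2.06 (4.18-fold lower, adjusted p = 1.74e-07) and -1.75 (3.36-fold lower, adjusted p = 5.82e-07). Nos1, the neuronal nitric oxide synthase, rose by 1.17 (adjusted p = 3.01e-05) and 0.82 (adjusted p = 0.000572). Kit, a receptor tyrosine kinase present on several interneuron classes, rose by 0.99 (adjusted p = 0.000504) and 1.30 (adjusted p = 7.43e-05).

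For the 4 members that fell in both genotypes, the genes with the most similar pattern were found as the smallest root mean square difference over the 12 arrays after each probe set was centred on its own mean. Slc32a1 was nearest to Pcdh10, a protocadherin (0.06 log2 units), and Shb, an adaptor protein (0.06). Pvalb was nearest to Itgav, the integrin alpha V subunit, and Plekho1 (0.11 each), Vip to the kinase gene Mapk6 and the ubiquitin ligase gene Hecw2 (0.08 each), and Npy to the orphan receptor gene Gpr153 and Dock3 (0.11 each). The members' own spread around their means was 0.34 to 0.51 log2 units. Each nearest gene was also called lower in hippocampus in both genotypes, so the likeness includes the tissue difference by which the members were picked. No member was among these nearest genes, because members were left out of the search.

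Between the genotypes, no member probe set passed the test in either tissue. In cortex, 0 of 15 were called in APPsα-DM against APLP2-KO (limma), against 0.00888% of all probe sets, and 2 had an unadjusted p under 0.05, against 4.50% of all. Of the 15 differences 10 were above 0 (51.5% of all probe sets), with a median of 0.06 against 0.00 over all probe sets. Groups did not overlap for 2 probe sets, both higher in APPsα-DM, the brighter one of Gad1 and that of Sst, as for 4.07% of all probe sets. The largest differences were those of Calb2, Dlx1 and Gad1.

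The brighter Gad1 probe set read 12.14 to 12.21 on APLP2-KO cortex and 12.22 to 12.53 on APPsα-DM cortex, a difference of 0.19 ± 0.08 (interval 0.02 to 0.36, unadjusted p = 0.035, adjusted p = 1). Dlx1 read 7.72 to 7.98 and 7.96 to 8.49 (0.34 ± 0.13, interval 0.06 to 0.63, unadjusted p = 0.0223, adjusted p = 1), and the groups overlapped. Calb2 read 7.44 to 8.31 and 7.61 to 9.48 (0.71 ± 0.35, interval -0.05 to 1.46, adjusted p = 1). In each of these genes the highest of the 6 cortical arrays was APPsα-DM cortex 3. The arrays of APPsα-DM cortex in these differences are the same ones that enter the tissue differences of APPsα-DM.

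That array was the highest of the 6 for 5 of the 10 members, Gad1, Gad2, Slc32a1, Calb2 and Dlx1, and the lowest for 3, Pvalb, Vip and Npy. Over all probe sets it was the highest for 14.1% and the lowest for 16.9%. It was also the highest for 5 of the 12 measured transcription factors, among them Dlx2 (8.06), Dlx5 (7.37) and Dlx6 (6.40), and the lowest for 1, Satb1 (9.93). APLP2-KO cortex 1 was the highest for 4 of these 12 factors and for 19% of all probe sets. Sp8, a factor of olfactory bulb and other interneurons, had the smallest p of its list in this comparison (0.80 ± 0.38, adjusted p = 1). It read 6.70 on APPsα-DM cortex 3 and 4.27 to 5.35 on the other cortical arrays. Satb1 came next and went the other way (-0.25 ± 0.12, limma, unadjusted p = 0.0572).

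The olfactory bulb and striatal marker means were highest on APPsα-DM cortex 3 among the cortical arrays. Of 6 olfactory bulb markers 6 were measured and 6 were above 0 in APPsα-DM cortex against APLP2-KO cortex, with 0 called and 1 at an unadjusted p under 0.05 (limma). Over all probe sets 51.5% were above 0, 0.00888% were called and 4.50% had an unadjusted p under 0.05. Their mean log2 signal was 5.61 to 5.89 in APLP2-KO cortex (sums of 33.65 to 35.33) and 5.68, 6.05 and 6.87 in APPsα-DM cortex (34.09 to 41.22), with APPsα-DM cortex 3 the highest, against 5.77 to 5.89 in all hippocampal arrays (34.59 to 35.36). On APPsα-DM cortex 3 Cdhr1 read 8.90, against 5.91 to 6.91 on the other cortical arrays and 6.79 to 7.69 on the hippocampal arrays. Doc2g read 7.08 against 5.37 to 5.90 on the other cortical arrays, and Th, tyrosine hydroxylase, 6.96 against 5.56 to 6.16. Eomes read 5.84 against 4.96 to 5.38 and Trh 6.08 against 5.40 to 5.66. Kctd12b did not stand out, at 6.36 against 6.01 to 6.39. No marker was at 0, and Th, Eomes, Doc2g and Trh lay between 4.96 and 6.16 on the other cortical arrays, near the median of all probe sets. The striatal list was likewise highest on APPsα-DM cortex 3 (9.94). In this comparison 11 of 12 were above 0 (51.5% of all probe sets), 2 had an unadjusted p under 0.05 (4.50%) and 0 were called (0.00888%).

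Without APPsα-DM cortex 3 the genotype difference in cortex was 0.22 for Calb2, 0.18 for Dlx1 and 0.11 for Gad1. With the olfactory bulb mean as a covariate, chosen after seeing the data, it was -0.03, 0.12 and 0.11, and with the striatal mean 0.44, 0.25 and 0.15. Gad2 turned from 0.08 to -0.04 without that array and to -0.06 with the olfactory bulb covariate, with which Pvalb went from 0.05 to 0.24. Slc32a1 went from 0.12 to 0.02 with the striatal covariate. None of these settings gave a call. The olfactory bulb mean was 6.87 on APPsα-DM cortex 3 and 5.61 to 6.05 on the other arrays. That covariate sets this array farthest apart, but for Calb2 it did not act as leaving the array out did (-0.03 against 0.22). Calb2 also read 8.31 and 8.45 on APLP2-KO cortex 3 and APPsα-DM cortex 2, where the olfactory bulb mean was 5.89 and 6.05. On the remaining cortical arrays it read 7.44 to 7.67, at means of 5.61 to 5.69. The part of olfactory bulb or striatal tissue in these differences was not tested.

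**Figure D4:**
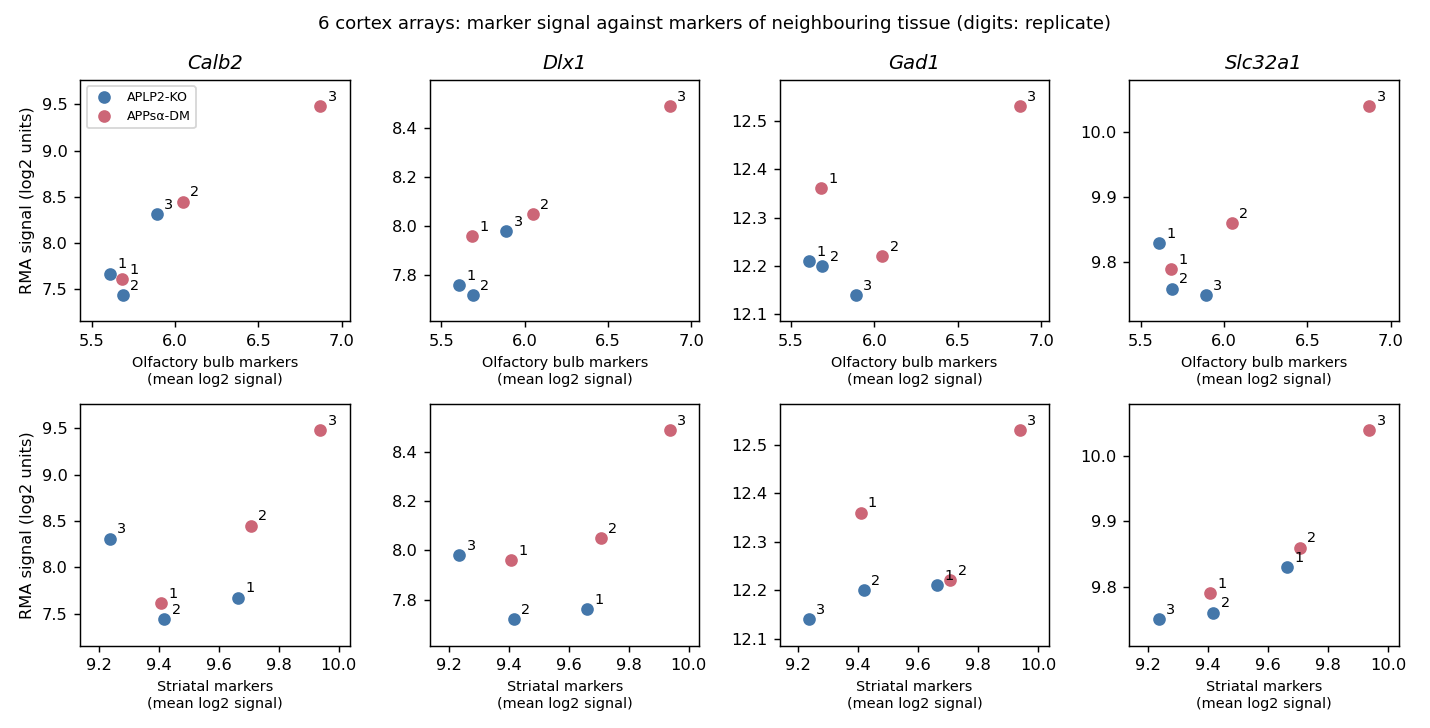
Log2 RMA signal of Calb2, Dlx1, Gad1 and Slc32a1 on the 6 cortex arrays against the mean log2 signal of 6 olfactory bulb markers (upper row) and 12 striatal markers (lower row); each point is 1 array and digits give the replicate. APPsα-DM cortex 3 lies at the upper right in every panel, at 6.87 for the olfactory bulb mean and 9.94 for the striatal mean. The genes drawn are all among the members that were highest on this array in cortex, so their place there follows from the choice. Pvalb, Vip and Npy, which were lowest on it, are not drawn.

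The other members were closer together in cortex. Slc32a1 (brightest probe set) differed by 0.12 (interval -0.06 to 0.30), Gad2 by 0.08 (interval -0.12 to 0.28), Pvalb by 0.05 (interval -0.19 to 0.30) and Sst by 0.06 (interval -0.07 to 0.19). Vip differed by -0.07 (interval -0.32 to 0.17), Npy by -0.08 (interval -0.33 to 0.16) and Cck by -0.01 (interval -0.16 to 0.13). Each of these has an adjusted p of 1, and of these intervals that of Npy reaches farthest from 0. The 3 dim probe sets of Slc32a1 and the other probe sets of Gad1 and Gad2 gave -0.06 to 0.25.

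In hippocampus, 0 of 15 probe sets were called between the genotypes (limma; 0.00888% of all) and 1, that of Pvalb, had an unadjusted p under 0.05 (4.11% of all). Pvalb read 9.59, 9.61 and 9.56 on APLP2-KO and 9.79, 9.97 and 9.81 on APPsα-DM arrays, higher on every APPsα-DM array (0.27 ± 0.11, 1.20-fold, interval 0.02 to 0.51, unadjusted p = 0.0368, adjusted p = 1). It was the only member probe set that lay higher in APPsα-DM without overlap, as 4.10% of all probe sets did. Cck (11.57, 11.51 and 11.47 against 11.38, 11.41 and 11.43) and the dim Slc32a1 probe set 1456457_at lay lower without overlap, as 5.78% of all did, with differences of -0.11 ± 0.07 and -0.10 ± 0.09.

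Vip differed by 0.22 ± 0.11 in hippocampus (interval -0.03 to 0.47, unadjusted p = 0.0739, adjusted p = 1). APLP2-KO hippocampus 3 (9.14) lay below the other arrays of its group (9.64 and 9.56), and without it the difference was 0.07. The brightest probe sets of Gad1, Gad2 and Slc32a1 differed by 0.09, 0.06 and 0.09, Npy by 0.10, Dlx1 by 0.06, Sst by -0.00 (interval -0.13 to 0.13) and Calb2 by -0.04 (interval -0.79 to 0.72). The Calb2 interval rests on the spread pooled over the groups of both tissues. Its standard deviation was 0.02 in APLP2-KO and 0.11 in APPsα-DM hippocampus, against 0.45 and 0.94 in cortex. Over the 15 probe sets 9 were above 0 (48.8% of all), with a median of 0.06 against -0.00 over all probe sets. Choroid plexus markers moved with this comparison: 8 of 8 were above 0 (48.8% of all probe sets), with a median of 1.10. By limma 0 were called (0.00888% of all) and 0 had an unadjusted p under 0.05 (4.11% of all). List means were 5.73 to 7.93 in APLP2-KO (sums of 45.87 to 63.42) and 5.93 to 9.04 in APPsα-DM (47.47 to 72.35), and none was at 0. With the choroid plexus mean as a covariate Pvalb gave 0.29, Vip 0.29 and Cck -0.10.

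**Figure D5:**
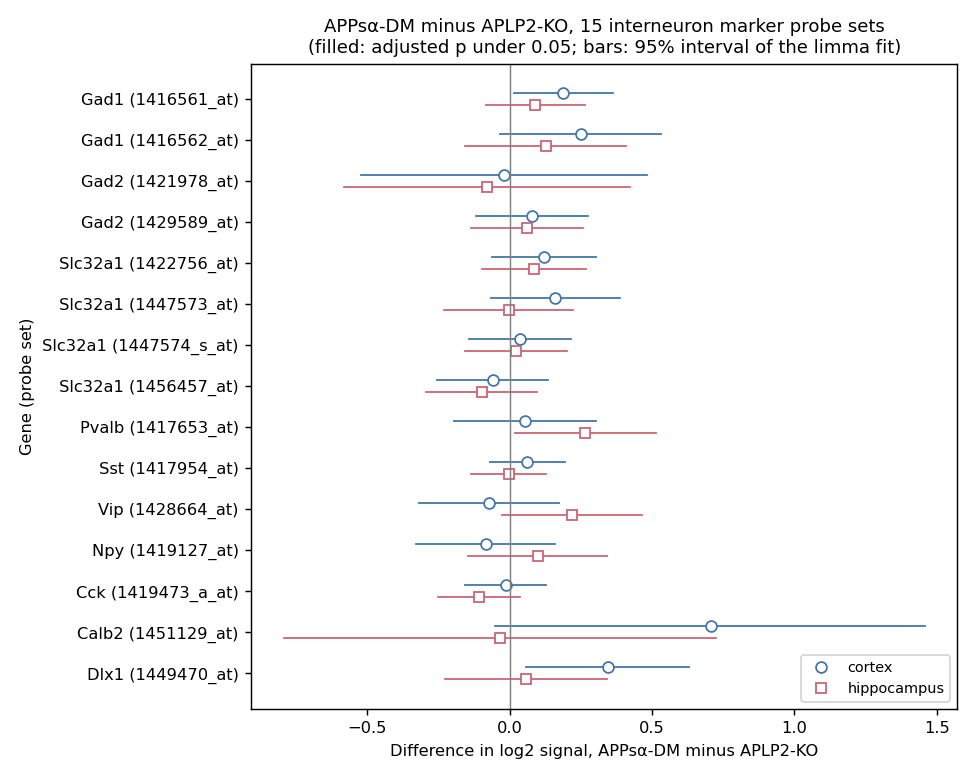
Difference in log2 signal, APPsα-DM minus APLP2-KO, of the 15 probe sets in cortex and hippocampus, with 95% intervals of the limma fit; open symbols did not pass the test. No symbol is filled, and the intervals of Gad1 (0.19) and Dlx1 (0.34) in cortex and of Pvalb (0.27) in hippocampus leave out 0 before adjustment.

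Among the other genes of the lists, none passed between the genotypes in either tissue (limma, adjusted p = 1 for each gene named here). At an unadjusted p under 0.05 there were 1 of 8 GABA handling genes, 0 of 12 transcription factors and 3 of 31 subclass markers in cortex (4.50% of all probe sets), and 1, 0 and 1 in hippocampus (4.11%). Slc38a5, a glutamine transporter, read 6.32, 5.89 and 6.28 on APLP2-KO cortex against 6.62, 6.96 and 6.65 on APPsα-DM cortex (0.59 ± 0.15, unadjusted p = 0.00203). In hippocampus Slc38a5 read 6.41, 6.54 and 6.49 against 6.90, 7.23 and 6.65 (0.45 ± 0.15, unadjusted p = 0.0115). It lay higher in APPsα-DM without overlap in each tissue, as 4.07% of all probe sets did in cortex and 4.10% in hippocampus. The share doing so in both was not counted, and with 3 mice per genotype the tissues are not independent. Syt2, a calcium sensor of fast-spiking terminals, had the smallest p of the subclass markers in hippocampus, at 7.40, 7.13 and 6.86 against 7.40, 7.86 and 7.61 (0.49 ± 0.15, unadjusted p = 0.0061), but 0.13 with the mean of its probe sets. It was followed by Kcnc1, a potassium channel subunit of fast-spiking cells, at 9.77, 9.79 and 9.81 against 9.87, 10.05 and 9.99 (0.18 ± 0.09, unadjusted p = 0.0626). In cortex the smallest p of that list belonged to Ndnf, a marker of neurogliaform cells (0.55 ± 0.22, unadjusted p = 0.0256), and Nos1 (0.29 ± 0.12, unadjusted p = 0.0304), both highest on APPsα-DM cortex 3 (8.26 and 8.67). With the olfactory bulb covariate Ndnf gave 0.18 and Nos1 0.12, and the mean of its probe sets gave 0.12 for Nos1.

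The difference between the genotype effects of the tissues did not pass for any member: 0 of 15 were called and 0 had an unadjusted p under 0.05 (limma), against 0% and 3.79% of all probe sets. The smallest p was that of Vip, whose genotype difference was 0.29 ± 0.16 greater in hippocampus than in cortex (interval -0.05 to 0.64, unadjusted p = 0.091, adjusted p = 1), and 0.14 greater without APLP2-KO hippocampus 3. For Pvalb the difference between effects was 0.21 ± 0.16 (interval -0.14 to 0.56), for Dlx1 -0.29 ± 0.19 (interval -0.69 to 0.12) and for Calb2 -0.74 ± 0.49 (interval -1.82 to 0.33). With the olfactory bulb covariate they were 0.00, -0.03 and 0.09, so that the sign of Calb2 turned. That covariate was chosen after seeing the data and was highest on APPsα-DM cortex 3. The part of olfactory bulb tissue in these values was not tested.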

How the data were processed

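Signals were the authors' deposited RMA values on a log2 scale, and per the submitters' processing notes RMA and affy were used. Whether all arrays were normalised jointly was not given in the sources used here. The method corrects background, sets all arrays to 1 distribution and summarises probes, which compresses low signals. Biotin-labelled cRNA came from 1 µg of total RNA per the labels' protocols. Array medians lay at 5.86 to 5.91. Of 45101 probe sets, 64 controls were left out and 45037 tested without a filter. Symbols came from the platform annotation, where 34945 probe sets had 1 symbol, 932 several and 9160 none.

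With limma 3.58.1 in R 4.3.3, 4 group means were fitted over 12 arrays (8 residual and 4.25 prior degrees of freedom) and adjusted by Benjamini-Hochberg over 45037 probe sets at 0.05. Tests are two-sided, errors are moderated standard errors, and the script was tested on simulated data. Precision is limited by the number of arrays, with a median standard error of 0.09 log2 units for a genotype difference.

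Members and lists were chosen with earlier results of these data known. From each list, the members past the threshold were named, at most 4 per comparison with the smallest p, or up to 2 not past it. The peptide receptors were named beside their ligands beyond that rule, with their values in view. Dlx2 in APPsα-DM was likewise named beside its relatives beyond it. Lists used the brightest probe set of each gene. Promoter sequences are RefSeq's (GRCm38.p6), and that of Calb2 was not analysed here.

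In APLP2-KO, deviations from the group means of same-numbered cortex and hippocampus arrays correlated at 0.174 to 0.264. Those of arrays with different numbers correlated at -0.223 to 0.0425. The labels do not say that a number marks a mouse. Alternatives covered normalisation, variance moderation, dim probe sets, probe sets per gene, the arrays fitted, marker covariates, the replicate block and leaving out each array.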

Additional observations from a re-analysis of the deposited data

How the results depend on the processing

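The genotype comparisons and their difference gave 0 called member probe sets under every alternative run (limma; 2, 1 and 0 at an unadjusted p under 0.05 in the fit reported). The tissue comparisons gave 4 to 5 calls in APLP2-KO and 4 to 6 in APPsα-DM, with 4 to 5 in each when an array was left out. With the replicate number as a block, pairing the arrays, the counts were 0, 0, 0, 5 and 5, and no call of a member changed. Same-numbered arrays of the genotypes come from different mice. Their deviations correlated at -0.473 to -0.13 in cortex (different numbers -0.245 to 0.421) and 0.0105 to 0.241 in hippocampus (different numbers -0.29 to 0.0703). Those of the APPsα-DM tissues correlated at 0.0473 to 0.116 (different numbers -0.105 to 0.0462). Such correlations thus also arise between different mice and do not by themselves show that a number marks a mouse. The marker covariates, centred within tissue, were not run for the tissue comparisons, nor the 6-array fit for the difference between effects. Over member probe sets and alternatives, 196 of the values past the threshold stayed there and 14 lost it; 3 others passed it. Calb2 in APLP2-KO also lost its call with trended robust moderation (adjusted p = 0.0868) and with none (0.11), and Dlx1 in APPsα-DM with its 6 arrays alone (0.0678) and without moderation (0.0854). Vip, Npy and Pvalb kept their calls in both genotypes under every alternative run. The 3 arrays of a group limit what can be seen: intervals of genotype differences reached 0.17 on either side of Gad1 and 0.76 on either side of Calb2. The width for Calb2 comes from the spread pooled over the groups, which was largest in APPsα-DM cortex (standard deviation 0.94).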
